A study of Mus musculus with 15 samples.

Results

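The mRNAs of 43 enzymes of glycolysis, the pentose phosphate pathway and the tricarboxylic acid (TCA) cycle were compared, enzyme by enzyme and isoform by isoform, in mouse CD8+ T cells. The enzymes were chosen by gene symbol from these pathways, 19 from glycolysis, 7 from the pentose phosphate pathway and 17 from pyruvate dehydrogenase and the TCA cycle. All 43 had a value among the 11262 mRNA measured in naïve and activated cells, and all 43 among the 11211 mRNA measured in cytotoxic T lymphocytes (CTL).

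RNA sequencing covered 15 libraries in 5 groups of 3 biological replicates, all of cells from P14 mice, which carry a transgenic T cell receptor (TCR) for a peptide of the LCMV glycoprotein. Naïve CD8+ cells were sorted directly from lymph nodes, and activated cells were sorted after 24 h in medium with IL-12 (2 ng/ml), IL-2 (20 ng/ml) and the viral peptide gp33–41 (100 ng/ml), either without or with 10 µM IC87114, an inhibitor of the PI3K subunit p110δ (PI3Kdi). Each replicate of these 3 groups came from a pool of cells of 3 mice that was split between the groups, and these mice were females 9 to 13 weeks of age. The age of the mice behind the CTL is not given in the sources used here. CTL were activated for 48 h, grown in IL-2, washed on day 6, and then kept for 24 h with 20 ng/ml IL-2 or with none. The treatment labels of the IL-2 replicates 2 and 3 name other interleukins, so CTL libraries were grouped by their titles. These labels also give the same replicate number for all CTL. Replicate numbers of CTL were therefore taken from the titles and the biological replicate field, which match. The values are FPKM, fragments scaled to exon length and library size, which allow levels of genes of different length to be set side by side. They are relative to the other RNA of a library and give no amount per cell. The CTL table was normalized separately from the table of naïve and activated cells, so no test was made across them. Read totals per library are not given in the sources used here, so the depth is unknown.

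Glycolysis turns glucose into pyruvate and lactate and yields ATP in the cytosol. The pentose phosphate pathway branches from it and supplies NADPH and the ribose of nucleotides, while the TCA cycle oxidizes acetyl groups in mitochondria and supplies precursors for lipids and amino acids. Naïve T cells are small and quiescent. T cells that meet antigen grow, divide and take up large amounts of glucose, a program in which signals from the TCR and IL-2 take part. PI3K has also been held to take part in it.

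The labelled cell type was checked against marker genes. All 8 of 8 CD8 T cell markers were measured, and their summed levels were 5090, 5496 and 5529 FPKM in the naïve libraries, 1645, 1440 and 1348 FPKM in the TCR activated libraries, and 1530, 1614 and 1437 FPKM with PI3Kdi. The most abundant was Cd8b1 in naïve cells and Thy1 in the other groups. The CTL sums were 2602, 2967 and 2842 FPKM with IL-2 and 3654, 3466 and 3658 FPKM without it. Lineage markers of other cells were few. No monocyte or macrophage marker (of 9), neutrophil marker (of 5) or erythroid marker (of 7) had a row in either table, which hold only mRNA that passed the authors' filter on low counts. Of 8 B cell markers, 5 had a row in the first table, all but Ebf1, Pax5 and Blk, and their sums were 21.1, 27.7 and 23.1 FPKM in naïve cells, 5.88, 4.89 and 7.68 FPKM after activation and 3.39, 4.65 and 4.36 FPKM with PI3Kdi, with Cd79b the most abundant. In CTL only Cd79b had a row, at 6.3, 3.96 and 2.74 FPKM with IL-2 and 20.6, 15.7 and 10.8 FPKM without it. Of 3 CD4 T cell markers, 2 had a row in each table, Foxp3 and Zbtb7b in the first, with sums of 0.1, 0.37 and 0.28 FPKM in naïve cells, 0.75, 0.73 and 0.67 FPKM after activation and 1.4, 1.36 and 1.48 FPKM with PI3Kdi. In CTL Cd4 and Zbtb7b summed to 17, 21.4 and 16.8 FPKM with IL-2 and 30.2, 29.4 and 25.6 FPKM without it, nearly all of it Zbtb7b.

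Dendritic cell markers had 1 of 7 rows in each table, Zbtb46 at 0.05, 0.09 and 0.1 FPKM in naïve cells, 0.48, 0.58 and 0.64 FPKM after activation and 0.07, 0.16 and 0.14 FPKM with PI3Kdi, and Itgax in CTL at 0.21, 0.39 and 0.33 FPKM with IL-2 and 3.67, 5.17 and 4.81 FPKM without it. Of 3 NK cell markers, none had a row in the first table and Klrb1c had one in CTL, at 1.88, 1.2 and 1.87 FPKM with IL-2 and 2.17, 2.65 and 3.41 FPKM without it. Of 7 stromal and endothelial markers, Pecam1 and Pdgfrb had rows, with sums of 56.5, 67 and 61.8 FPKM in naïve cells, 2.6, 2.74 and 3.62 FPKM after activation, 4.94, 6.21 and 8.34 FPKM with PI3Kdi, 29.6, 31.2 and 22.7 FPKM in CTL with IL-2 and 54.1, 51.8 and 63.6 FPKM without it, nearly all of it Pecam1.

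The markers also changed between the groups, given here as log2 fold changes from the fits described below, with calls at an adjusted p under 0.05 and over 2-fold. All 8 CD8 T cell markers were called lower upon activation, from -1.08 (adjusted p = 6.9e-06) for Thy1 to -3.10 (adjusted p = 2.4e-10) for Cd3g. The similar sums of TCR activated and PI3Kdi libraries hide opposite moves, since with PI3Kdi Thy1 was lower at -0.76 (adjusted p = 0.0017) and Cd3d, Cd3e and Cd3g were higher at 0.83 (adjusted p = 8.0e-04), 0.47 (adjusted p = 0.017) and 0.91 (adjusted p = 1.4e-04), none over 2-fold. Without IL-2, Thy1 was lower at -0.46 (adjusted p = 0.0061) and the other 7 lay above 0, with Cd3d (1.32), Cd3g (1.13) and Cd8b1 (1.18) called higher. Of the markers of other cells, Zbtb7b (1.85) and Zbtb46 (1.89) were called higher and Cd79b (-2.72), Pdgfrb (-1.96) and Pecam1 (-4.43) lower upon activation. With PI3Kdi against TCR activated cells, Pecam1 was called higher (1.13) and those called lower included Ms4a1 (-2.34), Fcer2a (-1.71) and Zbtb46 (-1.59). Without IL-2, Cd4 (2.29), Cd79b (1.87), Itgax (3.51), Pdgfrb (1.42) and Pecam1 (1.02) were called higher and none lower. The part of these genes in the results on the enzymes was not tested, and in bulk RNA fewer cells of a type and less RNA per cell cannot be told apart.

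Some of the enzymes have near-identical copies elsewhere in the genome, and their levels are uncertain where reads could be split between copies. In the GENCODE annotation, the share of 75-base windows of a gene's exons that also occur in exons of other genes was 80.3% for Gapdh (118 other genes), 67.5% for Pgk1, 65.4% for Eno1, 40.6% for Pgam1, 19.9% for Pdhb, 16.7% for Ldhb, 16% for Suclg2 and 9.96% for Gpi1. It was 5.23% for Ldha and 2.48% for Tpi1, under 2% for G6pdx, Aldoa, Taldo1 and Cs, and 0 for the other members. Exons of Hk1, Hk3, Gpi1, Pfkm, Pfkp, Aldoa, Tpi1, Gapdh, G6pdx, Rpe, Pdha1, Idh3b and Mdh1 overlap a gene on the opposite strand, and those of Pfkm, Pgls and Tkt a gene on the same strand. The libraries were made with a stranded kit, but whether the counting used the strand is not stated, so the levels of these genes are uncertain to that extent.

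The comparison of TCR activated with naïve cells asks which enzymes of central metabolism change as a resting T cell enters growth. Fits were made with limma on log2(FPKM + 0.1) for every gene of a table, with Benjamini-Hochberg adjustment across the table. A gene counted as changed, that is as risen or fallen, where its adjusted p was under 0.05 and its level differed by more than 2-fold either way. A change given in what follows with no other unit is a log2 fold change on this scale, which understates the change of mRNA of low level. Activation raised 20 of the 43 enzyme mRNAs and lowered 1, beside 25.0% higher and 23.7% lower among all genes tested. Of the glycolytic enzymes 12 of 19 rose and 1 fell, of the pentose phosphate enzymes 3 of 7 rose, and of the TCA enzymes 5 of 17 rose, and no member of those 2 pathways fell in this limma fit (1 and 2 lower at an unadjusted p under 0.05). The median log2 fold change was 0.92 over the 43 and 0.01 over all genes, with 1.68 for glycolysis, 0.89 for the pentose phosphate pathway and 0.55 for the TCA enzymes. All TCR activated libraries were above all naïve libraries for 30 of the 43 and below them for 3, beside 40.7% and 40% of all genes. When libraries were rescaled to the same median, the median of all genes moved from 0.01 to 0.13, and 23 members passed as higher and 1 as lower, with Rpia, Aco1 and Suclg2 added at 1.01, 1.05 and 1.07.

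**Figure D1:**
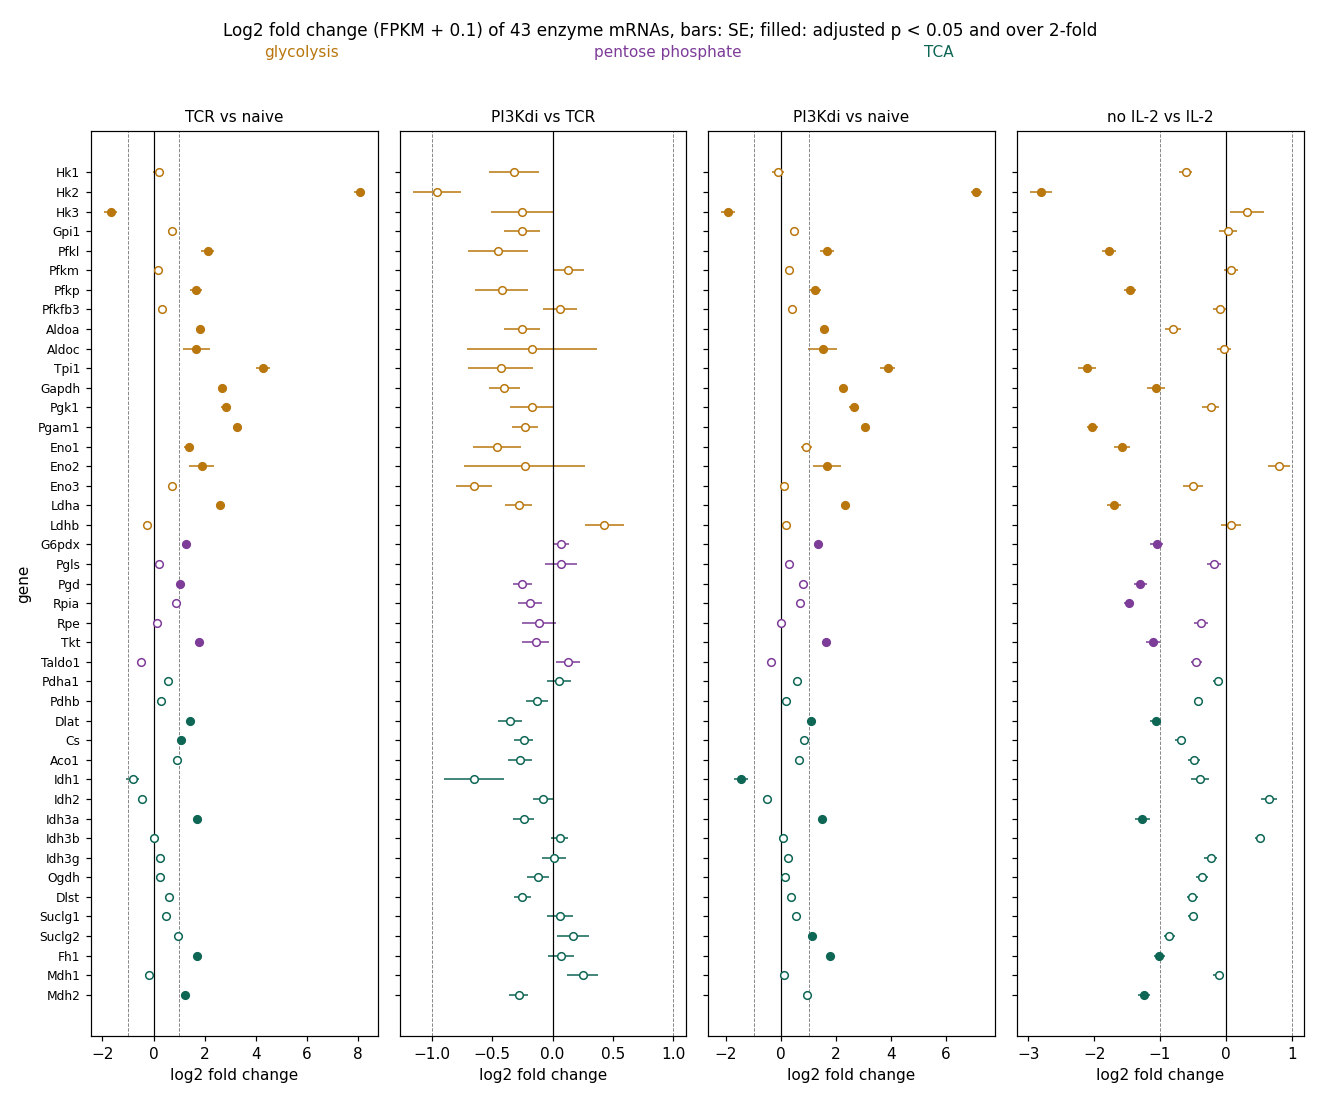
Log2 fold change of FPKM + 0.1 (horizontal axis, with its own range in each panel) for the 43 enzyme mRNAs (vertical axis) in the 4 comparisons, with bars of 1 SE, colors for the 3 pathways, filled points for mRNA called changed and dashed lines at a fold change of 2. Hk2 lies at 8.06 for TCR activated against naïve cells, filled points number 0 for PI3Kdi against TCR activated cells, and the 16 filled points for CTL without IL-2 all lie below 0.

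Hexokinases phosphorylate glucose and so trap it in the cell. Hk2 (Entrez 15277, chromosome 6 from 82725025 to 82774454 in mm10, the build of all coordinates here), the inducible isoform, was at 0.34, 0.23 and 0.56 FPKM in the 3 naïve libraries and at 123, 120 and 123 FPKM in the TCR activated libraries. It was near 0 in every naïve library and alike in the 3 activated ones, and the log2 fold change of 8.06 (SE 0.20, adjusted p = 4.9e-11) was the largest of the 43. Hk1, the isoform found in most tissues, was at 52.3, 53.4 and 69 FPKM in naïve and 91, 68.6 and 47.2 FPKM in activated cells. These groups overlapped, with the activated replicate 1 the highest and replicate 3 the lowest of all 6, and the log2 fold change was 0.20 (adjusted p = 0.37), or 0.58 (adjusted p = 0.0064) without replicate 3. Hk3 was the member that fell, from 0.4, 0.37 and 0.4 FPKM to 0.02, 0.1 and 0.05 FPKM, -1.68 (SE 0.26, adjusted p = 1.1e-04). Its levels were below 1 FPKM in all 9 libraries, and with a pseudocount of 1 its change was -0.40.

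Phosphofructokinase commits the sugar to glycolysis and exists as liver (Pfkl), muscle (Pfkm) and platelet (Pfkp) isoforms. Pfkl (Entrez 18641, chromosome 10 from 77986947 to 78009807) was at 17.9, 17.2 and 18.9 FPKM in naïve cells and 104, 92.7 and 50.4 FPKM after activation. Pfkp was at 32.4, 30.5 and 34.4 FPKM and then 142, 109 and 68.6 FPKM. For both, every activated library was above every naïve one and replicate 3 was the lowest of the activated libraries. The log2 fold change was 2.12 (SE 0.25, adjusted p = 1.0e-05) for Pfkl and 1.66 (SE 0.22, adjusted p = 2.7e-05) for Pfkp. Pfkm stayed near 7 to 9 FPKM, with means of 7.1 and 7.99 FPKM and a log2 fold change of 0.16 (adjusted p = 0.26). Pfkfb3, which makes an isomer of the product of phosphofructokinase that activates this enzyme, had means of 10.2 and 13 FPKM and a change of 0.34 (adjusted p = 0.044), under the fold limit, and of 0.24 (adjusted p = 0.19) without replicate 1 and 0.26 (adjusted p = 0.24) without replicate 2. Gpi1, which isomerizes the sugar before this step, went from 144, 164 and 181 FPKM to 343, 259 and 219 FPKM, higher in every activated library but also under the fold limit at 0.73 (adjusted p = 7.6e-04).

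Aldolase splits the fructose bisphosphate that phosphofructokinase makes, and triose phosphate isomerase (Tpi1) interconverts the products. The main aldolase, Aldoa, was at 209, 240 and 242 FPKM in naïve cells and 973, 834 and 632 FPKM after activation. Tpi1 (Entrez 21991, chromosome 6 from 124810586 to 124814158) was at 25.9, 28.5 and 25.4 FPKM and 732, 583 and 334 FPKM. Both mRNAs were higher in all 3 activated libraries, again with replicate 1 the highest and replicate 3 the lowest of those. Aldoa rose by 1.80 (SE 0.15, adjusted p = 6.7e-07) and Tpi1 by 4.29 (SE 0.27, adjusted p = 4.2e-08), the next largest change after Hk2. Aldoc, a minor aldolase here, was at 0.23, 0.13 and 0.38 FPKM and 2.68, 0.73 and 0.42 FPKM, a log2 change of 1.68 (adjusted p = 0.014). That call depends on replicate 1, which held the 2.68 FPKM and without which the change was 0.98 (adjusted p = 0.066). Without replicate 2 the change stayed at 1.60, in a smaller fit with an adjusted p of 0.087. With a pseudocount of 1 it was 0.75.

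Gapdh, Pgk1, Pgam1 and enolase carry the triose on to phosphoenolpyruvate. Gapdh (Entrez 14433, chromosome 6 from 125161852 to 125166467), the NADH-forming step, was at 276, 300 and 318 FPKM in naïve cells and 2254, 1743 and 1678 FPKM after activation, the highest levels of any member in both groups. The phosphoglycerate mutase Pgam1 (Entrez 18648, chromosome 19 from 41911871 to 41918665) was at 11.6, 12.8 and 10.9 FPKM and 108, 132 and 106 FPKM. In both cases the groups were far apart, while many windows of these genes are shared with other loci. The log2 fold change was 2.66 (SE 0.13, adjusted p = 4.8e-09) for Gapdh and 3.28 (SE 0.11, adjusted p = 3.2e-10) for Pgam1. Pgk1, the first step of glycolysis to form ATP, rose from a mean of 42 to 292 FPKM, 2.82 (adjusted p = 6.8e-08).

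Of the 3 enolase isoforms, Eno1 and Eno2 had low levels in this table and Eno3 the highest. Eno1, the isoform of most tissues, was listed at 1.47, 1.09 and 1.38 FPKM in naïve and 4.46, 3.55 and 2.8 FPKM in activated cells, a level that is uncertain because 65.4% of its windows occur in other loci. Eno3, named for muscle, was at 13.8, 13.8 and 11.7 FPKM and 19.2, 28 and 19.6 FPKM, and Eno2, named for neurons, at 0.35, 0.54 and 0.43 FPKM and 4.45, 1.9 and 0.74 FPKM. For each of the 3, all activated libraries were above all naïve ones. Eno1 rose by 1.38 (SE 0.20, adjusted p = 6.8e-05), and with a pseudocount of 1 its change was 0.98, under the fold limit. The call for Eno2, 1.88 (SE 0.50, adjusted p = 0.0046), rests on replicate 1 with its 4.45 FPKM, without which it was 1.15 (adjusted p = 0.056). Eno3 was higher by 0.74 (SE 0.15, adjusted p = 8.1e-04), under the fold limit.

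Lactate dehydrogenase reduces pyruvate to lactate and restores NAD+. Its A subunit gene Ldha (Entrez 16828, chromosome 7 from 46842274 to 46855627) was at 264, 275 and 235 FPKM in naïve cells and 1544, 1679 and 1428 FPKM after activation. The lowest activated library was far above the highest naïve one, and the log2 fold change was 2.59 (SE 0.11, adjusted p = 1.8e-09). Ldhb, the subunit typical of oxidative tissues, overlapped between the groups, with means of 9.69 and 7.97 FPKM and a change of -0.26 (adjusted p = 0.14).

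**Figure D2:**
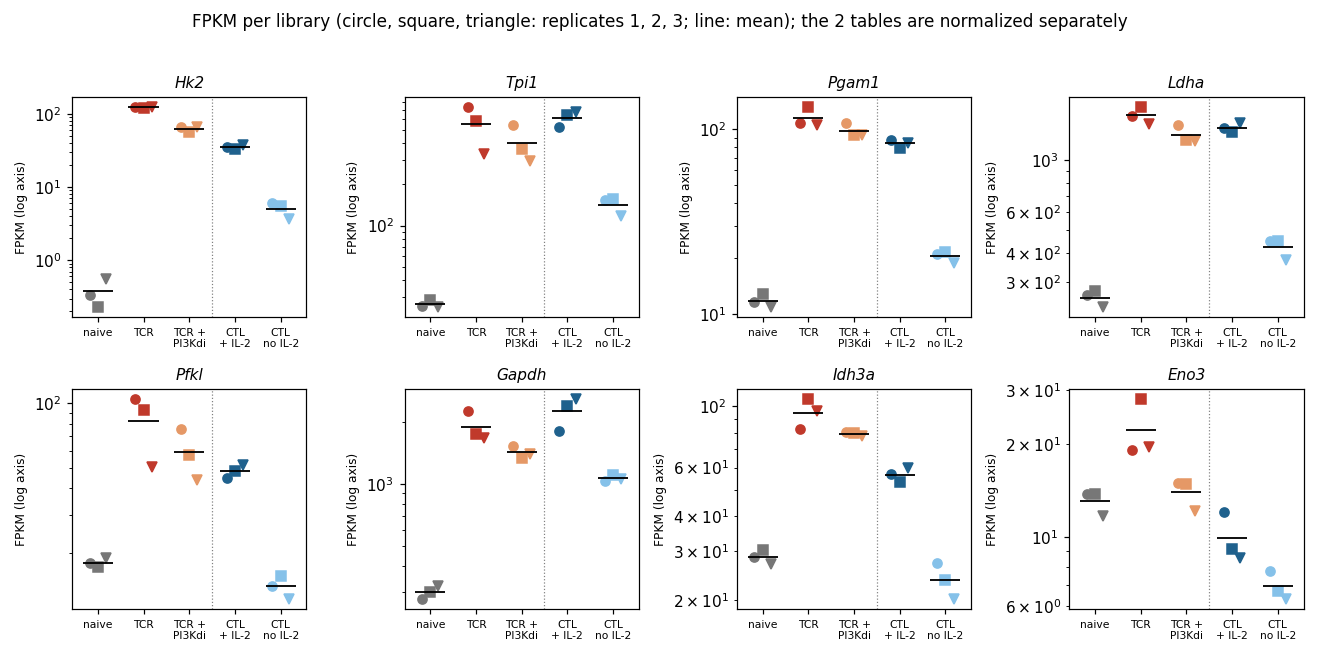
FPKM on a log axis (vertical) for 8 enzyme mRNAs in the 5 groups (horizontal), with circles, squares and triangles for replicates 1, 2 and 3, a line at each mean, and a dotted line between the separately normalized tables. Hk2 lies at 0.23 to 0.56 FPKM in naïve cells and at 120 to 123 FPKM in TCR activated cells, and all CTL libraries without IL-2 lie below those with IL-2 in each of the 8 panels.

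In the pentose phosphate pathway, the oxidative arm makes NADPH through G6pdx, Pgls and Pgd. G6pdx, its entry step, was at 23.1, 23.6 and 25 FPKM in naïve cells and 56, 57.8 and 57.9 FPKM after activation. Pgd was at 43, 42.3 and 44.8 FPKM and 96.4, 85.2 and 85 FPKM. The replicates were tight and the groups apart for both, with log2 fold changes of 1.26 (SE 0.07, adjusted p = 3.0e-08) for G6pdx and 1.03 (SE 0.08, adjusted p = 4.6e-07) for Pgd. Pgd lay at the fold limit, and without replicate 1, at 96.4 FPKM the highest activated library, its change was 0.97. Pgls, the lactonase between them, had overlapping groups with means of 45.8 and 53.7 FPKM.

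The non-oxidative arm makes ribose phosphate and returns surplus sugars to glycolysis. Its transketolase Tkt was at 73.9, 79 and 85.5 FPKM in naïve and 322, 244 and 256 FPKM in activated cells, and the ribose phosphate isomerase Rpia at 25, 27.9 and 24.2 FPKM and 44.1, 45.6 and 53.2 FPKM. All activated libraries were the higher ones for both, with changes of 1.78 (SE 0.11, adjusted p = 3.7e-08) for Tkt and 0.89 (SE 0.10, adjusted p = 4.7e-06) for Rpia, the latter under the fold limit. Taldo1, the transaldolase, went the other way, from 117, 140 and 110 FPKM to 79.7, 88 and 95.4 FPKM. Every activated library was below every naïve one, and the change of -0.48 (adjusted p = 0.0011) did not reach the fold limit. Rpe, the ribulose phosphate epimerase, overlapped between groups, with means of 16.1 and 17.6 FPKM.

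Pyruvate dehydrogenase feeds the TCA cycle, and the 3 of its subunits that are members differed in the size of their change. Dlat, the acetyltransferase subunit, was at 10.4, 10.5 and 10 FPKM in naïve and 24.6, 31 and 29.1 FPKM in activated cells, 1.44 (SE 0.10, adjusted p = 9.2e-08), with no overlap. Pdha1 and Pdhb, which form the decarboxylase of the complex, had changes of 0.55 (adjusted p = 4.3e-04) and 0.29 (adjusted p = 0.013), under the fold limit, and Pdhb was at 0.15 (adjusted p = 0.19) without replicate 3. Its subunits Pdhx and Dld, which are not members and belong to the list of other genes given below, rose like Dlat, at 1.25 (adjusted p = 2.7e-06) and 1.13 (adjusted p = 4.0e-08). Citrate synthase (Cs), which joins acetyl-CoA to oxaloacetate, was at 84.6, 89.1 and 95.6 FPKM and then 186, 188 and 192 FPKM, a log2 change of 1.07 (adjusted p = 1.6e-07) with no overlap. Aco1, the cytosolic aconitase, was higher at 0.92 (adjusted p = 4.0e-06), and at 1.04 without replicate 1, whose 16.6 FPKM was the lowest activated value.

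The isocitrate dehydrogenases split by isoform. Idh3a (Entrez 67834, chromosome 9 from 54586511 to 54604662), the catalytic subunit of the NAD-dependent mitochondrial enzyme, was at 28.5, 30.3 and 26.9 FPKM in naïve cells and 82.5, 106 and 96 FPKM after activation. Its partner subunits stayed close to their naïve levels, with means of 79.6 and 80.7 FPKM for Idh3b and 87.4 and 104 FPKM for Idh3g. Idh3a rose by 1.72 (SE 0.09, adjusted p = 1.6e-08), while the changes were 0.02 (adjusted p = 0.8) for Idh3b and 0.24 (adjusted p = 0.042) for Idh3g. The latter was at 0.11, 0.33 and 0.29 (adjusted p = 0.35, 0.059 and 0.054) without replicates 1, 2 and 3, and its adjusted p was 0.073 with no intensity trend and 0.065 with only the 2 groups compared. Of the NADP-dependent isoforms, mitochondrial Idh2 was at 50, 56.6 and 50.2 FPKM and 38, 40.7 and 36.8 FPKM, and cytosolic Idh1 at 2.62, 1.38 and 2.28 FPKM and 1.38, 0.9 and 1.09 FPKM. Idh2 was lower in every activated library and Idh1 met the naïve range at 1.38 FPKM, with changes of -0.44 (adjusted p = 3.6e-04) for Idh2 and -0.81 (adjusted p = 0.012) for Idh1, both under the fold limit, and -0.72 (adjusted p = 0.084) for Idh1 without replicate 3.

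Farther along the cycle, the fumarase Fh1 was at 22.2, 25.2 and 18.9 FPKM in naïve and 65.5, 76.5 and 73.9 FPKM in activated cells, and the mitochondrial malate dehydrogenase Mdh2 at 156, 180 and 170 FPKM and 403, 378 and 396 FPKM. Neither mRNA overlapped between the groups, and they rose by 1.71 (SE 0.11, adjusted p = 5.7e-08) and 1.22 (SE 0.08, adjusted p = 6.3e-08). The cytosolic isoform Mdh1 overlapped, at -0.16 (adjusted p = 0.29). Ogdh and Dlst of the oxoglutarate dehydrogenase complex differed by 0.25 and 0.60, and the succinyl-CoA ligase subunits Suclg1 and Suclg2 by 0.50 and 0.95, all with an adjusted p under 0.05 and all under the fold limit. For Ogdh this did not hold without replicate 1, at 0.17 (adjusted p = 0.21), without replicate 2, at 0.18 (adjusted p = 0.26), with no intensity trend (adjusted p = 0.051) or with only the 2 groups compared (adjusted p = 0.059). Suclg2 reached 1.11 without replicate 1, the lowest activated library at 34.9 FPKM.

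Addition of PI3Kdi asks how much of the enzyme program of activated cells depends on p110δ over the same 24 h. No member passed both limits in limma in this comparison, with 0 higher and 0 lower of 43, beside 3.04% higher and 2.10% lower among all genes. At an unadjusted p under 0.05, 1 member was higher and 13 were lower (2.33% and 30.2%), beside 16.1% and 15.4% of all genes. With the limit on the fold change left out, 0 were higher and 6 lower, beside 9.35% and 8.19% of all genes, and those 6 were Hk2, Gapdh, Eno3, Dlat, Dlst and Mdh2. This count of 6 changed with the setting, to 2, 1 and 2 without replicates 1, 2 and 3. It was 3 with no intensity trend and 4 with only the 2 groups compared. With the replicate number as a block or with a pseudocount of 0.01 it was 5, and with median scaling 8, which added Pgd and Cs. The shares of all genes under these settings are not given, so these counts cannot be set against them. The median log2 fold change was -0.23 over the members and -0.01 over all genes, with 30 of 43 below 0. All PI3Kdi libraries were above all TCR activated libraries for 2 members and below them for 13, beside 18.1% and 18.6% of all genes. Between same-numbered libraries, taken to share a pool, 22 of the 43 were lower with PI3Kdi in all 3 pairs and 4 were higher in all 3, beside 27.3% and 27.5% of all genes.

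Hk2 had the largest difference of the 43, from 123, 120 and 123 FPKM in TCR activated cells to 66.3, 56.9 and 65.2 FPKM with PI3Kdi. The PI3Kdi libraries were all lower by a similar amount and far above the naïve ones, and the change of -0.96 (SE 0.20, adjusted p = 0.0074) was just under the fold limit. Its adjusted p was 0.066 without replicate 1, a fit with fewer libraries in which the change was -0.99. Eno3 was at 19.2, 28 and 19.6 FPKM in TCR activated cells and 15, 14.9 and 12.2 FPKM with PI3Kdi, where it overlapped with the naïve values of 13.8, 13.8 and 11.7 FPKM. Against TCR activated cells Eno3 was lower, at -0.65 (SE 0.15, adjusted p = 0.015), and at -0.52 (adjusted p = 0.13) without replicate 2, which held the 28 FPKM, and -0.63 (adjusted p = 0.055) without replicate 3. Against naïve cells its change was 0.10 (adjusted p = 0.57).

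The other 4 members below the p limit had smaller differences. Gapdh was at 1532, 1331 and 1403 FPKM with PI3Kdi, below all 3 TCR activated libraries, -0.40 (SE 0.13, adjusted p = 0.049), and -0.32, -0.41 and -0.47 (adjusted p = 0.11, 0.27 and 0.12) when replicate 1, 2 or 3 was left out. Mdh2 was at 322, 320 and 328 FPKM with PI3Kdi, also below all of them, -0.28 (SE 0.08, adjusted p = 0.035), and -0.26, -0.30 and -0.28 (adjusted p = 0.12, 0.2 and 0.17) without replicates 1, 2 and 3. In the fit with the replicate number as a block, the adjusted p was 0.065 for Gapdh and 0.059 for Mdh2, and 0.035 for Idh1, which had 0.1 without the block. Dlat was at 21.8, 22.6 and 21.8 FPKM, tight and below the TCR activated libraries, -0.35 (SE 0.10, adjusted p = 0.032), and -0.30 (adjusted p = 0.28) without replicate 2 and -0.32 (adjusted p = 0.18) without replicate 3. Dlst went from 98.5, 103 and 104 FPKM to 82.7, 83.7 and 90.4 FPKM, -0.25 (SE 0.07, adjusted p = 0.033), and -0.25, -0.23 and -0.27 (adjusted p = 0.11, 0.3 and 0.11) without replicates 1, 2 and 3. The changes of Mdh2, Dlat and Dlst stayed near their size in these smaller fits, while the adjusted p rose. With all libraries kept but no intensity trend, the adjusted p was 0.062 for Mdh2, 0.068 for Dlst and 0.067 for Gapdh. With only the 2 groups compared it was 0.055 for Dlat and 0.075 for Gapdh. Idh1 went from 1.38, 0.9 and 1.09 FPKM to 0.75, 0.54 and 0.73 FPKM, lower in each PI3Kdi library, a change of -0.65 and among the 3 largest of the 43.

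For several glycolytic enzymes the replicates were spread widely in both groups. Tpi1 was at 542, 364 and 297 FPKM with PI3Kdi, Pfkl at 75.8, 57.2 and 43.9 FPKM and Pfkp at 93.2, 72.6 and 66 FPKM. Within each of these, replicate 1 was the highest and replicate 3 the lowest, as in the TCR activated cells, and the groups overlapped, while every PI3Kdi library was below the TCR activated library of the same number. The changes were -0.43 (adjusted p = 0.31) for Tpi1, -0.45 (adjusted p = 0.25) for Pfkl and -0.42 (adjusted p = 0.22) for Pfkp, and without replicate 3 Pfkl was at -0.58 (adjusted p = 0.041). Aldoa was at 764, 679 and 584 FPKM, Eno1 at 3.03, 2.49 and 2.19 FPKM and Eno2 at 1.88, 2.13 and 0.98 FPKM, each overlapping with TCR activated cells, at -0.25 (adjusted p = 0.3), -0.46 (adjusted p = 0.15) and -0.23 (adjusted p = 0.8). Aldoa and Eno1 were lower in all 3 pairs, as was Hk1 at -0.32 (adjusted p = 0.32), and Eno2 in 1 of them. Ldha was at 1415, 1214 and 1209 FPKM, below all 3 TCR activated libraries, -0.28 (adjusted p = 0.1). Pgam1 was at 108, 92.8 and 93.2 FPKM and overlapped at replicate 1, -0.23 (adjusted p = 0.18). Hk3 was at 0.02, 0.05 and 0.02 FPKM, near 0 as in TCR activated cells. The single member higher at an unadjusted p under 0.05 was Ldhb, at 11.8, 9.4 and 11.3 FPKM against 7.18, 8.61 and 8.11 FPKM, 0.43 (adjusted p = 0.08).

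In the pentose phosphate pathway 1 of 7 members was lower with PI3Kdi at an unadjusted p under 0.05, in the TCA list 7 of 17 and in glycolysis 5 of 19, beside 15.4% of all genes. G6pdx was at 59.5, 57.5 and 63.9 FPKM, Tkt at 254, 233 and 251 FPKM and Rpia at 41.7, 39.2 and 43.7 FPKM. Of these only Rpia had no overlap with TCR activated cells, lying below them at -0.19 (adjusted p = 0.19), and the changes were 0.07 for G6pdx and -0.14 for Tkt. Pgd, at 77.4, 68.1 and 78.4 FPKM, was below all TCR activated libraries at -0.25 (adjusted p = 0.064). Idh3a was at 80.5, 80.3 and 78.2 FPKM, Fh1 at 80.3, 74.1 and 72.1 FPKM and Idh2 at 36.4, 35.4 and 37.6 FPKM. Idh3a lay below the TCR activated libraries, and Fh1 and Idh2 overlapped with them, with changes of -0.24, 0.07 and -0.08. Cs, at 163, 149 and 167 FPKM, and Aco1, at 15.6, 15.1 and 14.5 FPKM, were below all TCR activated libraries, at -0.24 (adjusted p = 0.055) and -0.27 (adjusted p = 0.079). With median scaling, the change of Idh3g turned from 0.01 to -0.02, and no other member changed sign in this comparison under that scaling.

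Cells activated with PI3Kdi were also set against naïve cells, a comparison that shares its libraries with both others, so its values are given side by side with them and support neither. Here 17 of the 43 members were higher and 2 lower, beside 23.6% higher and 21.3% lower of all genes, with medians of 0.69 and 0.00. No overlap was found for 32 members above and 4 below the naïve libraries, beside 41.9% and 41% of all genes. By pathway 11 glycolytic, 2 pentose phosphate and 4 TCA enzymes were higher, and Hk3 and Idh1 were lower at -1.92 (adjusted p = 3.9e-05) and -1.47 (adjusted p = 2.6e-04), or -0.43 and -0.87 with a pseudocount of 1. Hk2 was higher by 7.10 with PI3Kdi and by 8.06 without it, Tpi1 by 3.87 and 4.29, Pgam1 by 3.05 and 3.28, and Ldha by 2.31 and 2.59. For Eno1, Pgd, Cs and Mdh2 the change was 0.92, 0.78, 0.83 and 0.94 with PI3Kdi, under the fold limit that they passed without it, and for Suclg2 it was 1.12 with PI3Kdi, over the limit. Several of these sit at the limit, with Eno1 at 1.06 and Suclg2 at 0.95 without replicate 3 (2.19 and 48.1 FPKM with PI3Kdi), and Mdh2 at 1.00 without replicate 2 (320 FPKM). The calls of Aldoc and Eno2, at 1.51 and 1.66, were at 1.27 and 1.58 (adjusted p = 0.16 and 0.079) without replicate 2, at 0.82 and 2.13 FPKM, and their changes were 0.59 and 0.86 with a pseudocount of 1. Median scaling moved the median of all genes from 0.00 to 0.10 here and gave 19 members higher and 2 lower, with Eno1 at 1.01 and Mdh2 at 1.03 added.

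Withdrawal of IL-2 from CTL asks which enzymes of a proliferating effector cell depend on the cytokine over 24 h. Of the 43 members, 16 fell and 0 rose in the limma fit of the CTL, beside 13.9% lower and 14.3% higher of all genes. At an unadjusted p under 0.05, 30 members were lower and 3 higher, beside 37.7% and 36.3% of all genes, and those 3, Eno2, Idh2 and Idh3b, also had an adjusted p under 0.05. Glycolysis gave 8 of the lower calls, the pentose phosphate pathway 4 of its 7 enzymes and the TCA list 4. The median log2 fold change was -0.50 over the 43 and -0.00 over all genes, and -0.61, -1.05 and -0.49 in the 3 pathways. All libraries without IL-2 lay below all with IL-2 for 31 members and above them for 3, beside 38.5% and 37.6% of all genes.

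Hk2 again gave the largest change, from 35.3, 33.5 and 37.5 FPKM with IL-2 to 6, 5.56 and 3.64 FPKM without. Hk1 was at 79.5, 100 and 100 FPKM and 61, 62.5 and 59.2 FPKM. Both isoforms were lower in every library without IL-2, Hk2 at -2.81 (SE 0.17, adjusted p = 9.1e-07) and Hk1 at -0.61 (SE 0.10, adjusted p = 4.1e-04), the latter under the fold limit. Hk3 stayed low, at 0.63, 0.6 and 0.7 FPKM with IL-2 and 0.57, 0.8 and 1.22 FPKM without, overlapping at 0.32 (adjusted p = 0.3).

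Of the phosphofructokinases, Pfkl was at 44.9, 48.2 and 51.1 FPKM with IL-2 and 14.1, 15.6 and 12.2 FPKM without, and Pfkp at 138, 147 and 173 FPKM and 55.7, 56.7 and 52.7 FPKM. Both fell with no overlap, at -1.78 (SE 0.11, adjusted p = 8.4e-07) for Pfkl and -1.46 (SE 0.09, adjusted p = 1.2e-06) for Pfkp, while Pfkm stayed at means of 6.69 and 7.07 FPKM. Pfkfb3 and Gpi1 overlapped between the groups, at -0.09 (adjusted p = 0.43) and 0.03 (adjusted p = 0.86). Aldoa was at 1257, 1526 and 1618 FPKM with IL-2 and 761, 906 and 843 FPKM without, lower in each at -0.81 (SE 0.12, adjusted p = 2.1e-04) but under the fold limit. Aldoc, at 28.6, 32.1 and 35.3 FPKM and 28.1, 33.5 and 32.5 FPKM, overlapped.

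Tpi1 fell from 522, 639 and 678 FPKM to 154, 155 and 117 FPKM, and Pgam1 from 88.1, 79.4 and 84.3 FPKM to 21.1, 21.7 and 18.8 FPKM. The 2 groups were far apart for both, with changes of -2.11 (SE 0.13, adjusted p = 1.1e-06) and -2.03 (SE 0.08, adjusted p = 2.0e-07). Gapdh, the most abundant member, was at 1808, 2379 and 2581 FPKM and 1033, 1109 and 1059 FPKM, -1.06 (SE 0.14, adjusted p = 8.0e-05). Gapdh lay close to the fold limit, at -0.95 without replicate 3, whose 2581 FPKM was its highest value. Pgk1, between Gapdh and Pgam1 in the pathway, had overlapping groups at 471, 328 and 361 FPKM and 332, 344 and 304 FPKM, a change of -0.23 (adjusted p = 0.14).

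The enolases moved in different directions. Eno1 was at 5.8, 6.07 and 6.33 FPKM with IL-2 and 2.07, 1.94 and 1.89 FPKM without, Eno2 at 1.25, 1.31 and 1.12 FPKM and 2.05, 2.58 and 2.09 FPKM, and Eno3 at 12.1, 9.18 and 8.54 FPKM and 7.79, 6.69 and 6.31 FPKM. Eno1 fell, at -1.58 (SE 0.12, adjusted p = 3.5e-06), Eno2 was higher in each library without IL-2 at 0.81 (SE 0.17, adjusted p = 0.0016), and Eno3 was lower at -0.50 (SE 0.15, adjusted p = 0.012), the last 2 under the fold limit, and Eno3 was at -0.53 (adjusted p = 0.062) without replicate 2. Ldha was at 1364, 1317 and 1430 FPKM with IL-2 and 451, 448 and 373 FPKM without. All 3 libraries without IL-2 were well below the others, with a change of -1.70 (SE 0.10, adjusted p = 8.1e-07), while Ldhb stayed at means of 1.96 and 2.09 FPKM.

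In the pentose phosphate pathway, G6pdx was at 34.9, 37.5 and 43 FPKM with IL-2 and 19.7, 17.6 and 18.1 FPKM without, and Pgd at 79, 93 and 103 FPKM and 37.1, 37.3 and 36.4 FPKM. Rpia was at 55, 54.6 and 58.2 FPKM and 20.5, 21 and 18.9 FPKM, and Tkt at 215, 280 and 272 FPKM and 122, 120 and 110 FPKM. None of these 4 overlapped between the groups. They fell, at -1.05 (SE 0.10, adjusted p = 1.0e-05), -1.30 (SE 0.10, adjusted p = 3.0e-06), -1.47 (SE 0.08, adjusted p = 5.2e-07) and -1.11 (SE 0.11, adjusted p = 1.3e-05) in that order, 2 of the 3 oxidative and 2 of the 4 non-oxidative enzymes. G6pdx was at -0.95 without replicate 3, which had the highest level with IL-2, 43 FPKM. Taldo1 and Rpe were lower at -0.45 (adjusted p = 7.6e-04) and -0.38 (adjusted p = 0.01), and Pgls was at -0.18 (adjusted p = 0.18), all under the fold limit. Without replicate 3 Rpe was at -0.27 (adjusted p = 0.051).

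Among the TCA enzymes, Dlat was at 15.9, 15.8 and 17.2 FPKM with IL-2 and 7.68, 7.57 and 7.85 FPKM without, and Idh3a at 56.8, 53.1 and 59.8 FPKM and 27.2, 23.5 and 20.1 FPKM. Fh1 was at 48.5, 48 and 47.8 FPKM and 24.9, 24.2 and 22.3 FPKM, and Mdh2 at 319, 378 and 377 FPKM and 151, 155 and 145 FPKM. All 4 fell without overlap, Dlat at -1.07 (SE 0.09, adjusted p = 5.5e-06), Idh3a at -1.27 (SE 0.11, adjusted p = 8.0e-06), Fh1 at -1.01 (SE 0.08, adjusted p = 2.8e-06) and Mdh2 at -1.25 (SE 0.09, adjusted p = 2.0e-06). Fh1 sits at the limit, at -0.97 without replicate 3 (22.3 FPKM without IL-2), at -0.99 with median scaling and at -0.99 with a pseudocount of 1, where Dlat was also at -0.99. Of the other isocitrate dehydrogenases 2 lay higher and 2 lower without IL-2. Idh2 was at 19.1, 24 and 17.6 FPKM and 32, 29.2 and 34.5 FPKM, Idh3b at 79.5, 77.8 and 76.2 FPKM and 107, 109 and 117 FPKM, and Idh1 at 5.96, 4.69 and 5.22 FPKM and 4.49, 4.03 and 3.51 FPKM. Idh2 and Idh3b were higher in every library without IL-2, at 0.66 (SE 0.12, adjusted p = 8.8e-04) and 0.51 (SE 0.07, adjusted p = 1.5e-04), and Idh1 was lower at -0.39 (adjusted p = 0.032), all under the fold limit, with -0.39, -0.48 and -0.31 (adjusted p = 0.073, 0.068 and 0.13) for Idh1 without replicates 1, 2 and 3. Idh3g, at 82.4, 106 and 98.6 FPKM and 80.9, 80.3 and 81.5 FPKM, was lower in every library without IL-2, at -0.23 (adjusted p = 0.053), and at -0.33 (adjusted p = 0.0069) without replicate 1. Cs was lower at -0.69 (adjusted p = 4.6e-05) and Suclg2 at -0.86 (adjusted p = 1.3e-05), and the other 7 TCA members had changes between -0.51 and -0.11.

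Shares within isoform families do not depend on how libraries are scaled, and FPKM is per length. They show how the listed FPKM divide between isoforms, which is uncertain where reads could be split between copies in the genome. In naïve cells Hk1 held 98.6, 98.9 and 98.6% of the summed hexokinase FPKM, and after activation 42.6, 36.3 and 27.8%. The share of Hk2 had means of 0.623 ± 0.188% (SD, n = 3) in the naïve group, 64.4 ± 7.41% in the TCR activated group and 54.1 ± 3.6% in the PI3Kdi group, the last 2 groups overlapping. By replicate number, the Hk2 share was 57.4, 63.6 and 72.2% in TCR activated cells and 52.1, 51.9 and 58.2% with PI3Kdi. It was lower with PI3Kdi in each same-numbered pair. In CTL the Hk2 share was 30.6, 25 and 27% with IL-2 and 8.89, 8.07 and 5.68% without. Hk2 was thus the larger part of hexokinase mRNA only in the 2 groups of newly activated cells.

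Phosphofructokinase shares moved less. Pfkp held 56.3% of the family on average in naïve cells, 54.1% after activation and 53.5% with PI3Kdi, and 73.5% and 72.4% in CTL with and without IL-2. Pfkl went from 31.3 ± 0.295% to 41.6 ± 2.06% upon activation with no overlap, and from 23.2 ± 1% to 18.3 ± 1.3% upon IL-2 withdrawal. The share of Pfkm, whose level was steady, went from 12.4 ± 0.69% to 4.28 ± 1.04% upon activation and from 3.24 ± 0.239% to 9.3 ± 0.442% upon IL-2 withdrawal.

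Enolase shares carry the uncertainty of Eno1, of whose windows 65.4% occur in other loci, beside 0 for Eno2 and Eno3. They therefore do not settle which isoform supplies the enolase mRNA. Eno3 held 88.1 ± 1.41% of the listed enolase FPKM in naïve cells, 78.9 ± 9.17% after activation and 77 ± 2.08% with PI3Kdi. After activation its share was 68.4, 83.7 and 84.7%, and the difference from naïve cells was -9.21 percentage points, or -3.8 without replicate 1. In CTL the share of Eno1 was 30.3, 36.7 and 39.6% with IL-2 and 17.4, 17.3 and 18.4% without, and that of Eno2 was 6.52, 7.91 and 7% and then 17.2, 23 and 20.3%. Both shares changed without overlap, Eno1 downward and Eno2 upward. Idh1 held 3.9, 2.85 and 1.81% of the NADP-dependent isocitrate dehydrogenase FPKM in naïve, TCR activated and PI3Kdi cells, and 21 ± 4.05% in CTL with IL-2 against 11.2 ± 1.71% without. Ldhb held 3.63% of lactate dehydrogenase FPKM in naïve cells and under 1% in every other group, and Aldoc 2.14% of aldolase FPKM in CTL with IL-2 and 3.61% without, against under 0.2% on average in the other groups.

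**Figure D3:**
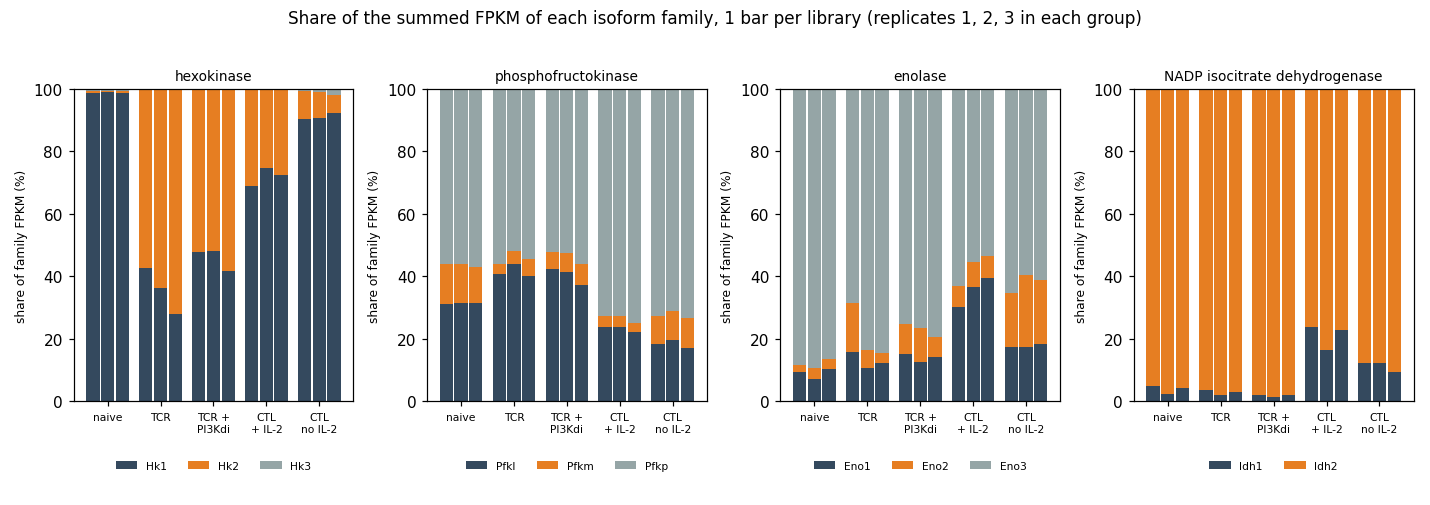
Share of the summed FPKM of each isoform family (vertical axis, percent from 0 to 100) held by each isoform, as stacked bars with 1 bar per library in the 5 groups (horizontal axis), for hexokinase, phosphofructokinase, enolase and NADP-dependent isocitrate dehydrogenase. Hk2 takes 57.4 to 72.2% of hexokinase in TCR activated cells and 0.426 to 0.801% in naïve cells.

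Summed by pathway, as a description with no test, the sum over the 17 TCA members had a mean of 970 FPKM in the naïve group, 1561 in the TCR activated group and 1441 in the PI3Kdi group, and the sum over the 7 pentose phosphate members had means of 357, 627 and 590 FPKM. The ratio of activated to naïve means was 1.61 for the TCA sum and 1.76 for the pentose phosphate sum, beside 5.02 for the 19 glycolytic members. Pyruvate kinase (Pkm), which belongs to the list of other genes given below, is not in the glycolytic sum. Its means were 205 FPKM in naïve, 1132 FPKM in TCR activated and 993 FPKM in PI3Kdi cells. With PI3Kdi the glycolytic sum was 0.788 of that in TCR activated cells, with overlap of the groups and ratios of 0.781, 0.735 and 0.861 in the 3 pairs. The TCA sum was 0.923 of that in TCR activated cells, with no overlap, and the pentose phosphate sum was 0.942, with overlap. In CTL the glycolytic sum was 6184, 7085 and 7630 FPKM with IL-2 and 3307, 3591 and 3332 FPKM without, a ratio of 0.489. The ratios were 0.551 for the pentose phosphate sum and 0.684 for the TCA sum, and none of the 3 sums overlapped between the CTL groups.

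The activated replicates were less alike for glycolysis than for the other pathways. The median coefficient of variation over glycolytic members with a mean of at least 1 FPKM was 21.7% in TCR activated cells, beside 11.5% over all genes, 10.2% for the pentose phosphate members and 8% for the TCA members. It was 11.7% in cells with PI3Kdi (all genes 6.66%) and 8.15% in naïve cells (all genes 9.74%). Replicate 1 was the highest and replicate 3 the lowest TCR activated library for Hk1, Gpi1, Pfkl, Pfkp, Pfkfb3, Aldoa, Aldoc, Tpi1, Gapdh, Eno1 and Eno2, while the other 8 glycolytic members, Hk2, Pgam1 and Ldha among them, had another order. The part of the cultures or the libraries in this spread was not tested.

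A list of 66 other genes of these pathways was examined in the same fits, of which 47 had a row in the first table and 48 in the CTL table. Activation raised 17 and lowered 7 of the 47, beside 25.0% and 23.7% of all genes, with a median log2 fold change of 0.67. The 3 largest changes were those of the glutaminase Gls2, at 0, 0.03 and 0 FPKM in naïve and 11.2, 11.6 and 4.79 FPKM in activated cells (6.31), the alanine transaminase Gpt2 at 0.09, 0.06 and 0.18 FPKM and 10.3, 2.55 and 2.22 FPKM (4.29), and the pyruvate dehydrogenase kinase Pdk2, which inhibits that complex, at 6.81, 7.2 and 7.83 FPKM and 0.56, 0.61 and 0.51 FPKM (-3.48). Of the other kinases of that complex, Pdk1 fell (-1.19) and Pdk3 rose (1.14). With PI3Kdi 3 were higher and 0 lower than in TCR activated cells in limma (7 higher and 4 lower at an unadjusted p under 0.05), beside 3.04% and 2.10% of all genes (16.1% and 15.4%). Pdk2 was at 1.38, 1.61 and 2.24 FPKM with PI3Kdi, above all TCR activated and below all naïve libraries, 1.46 (adjusted p = 4.1e-04). The lactate dehydrogenase Ldhd was at 0.79, 0.71 and 0.64 FPKM and 1.96, 2.83 and 3.22 FPKM, 1.74 (adjusted p = 6.9e-04), and Ogdhl at 0.2, 0.22 and 0.13 FPKM and 0.74, 0.41 and 0.32 FPKM, 1.01 (adjusted p = 0.044), a low level in every library. Against naïve cells, 18 were higher and 6 lower with PI3Kdi, beside 23.6% and 21.3% of all genes.

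Without IL-2, 12 of the 48 fell and 7 rose in CTL (25.0% and 14.6%), beside 13.9% and 14.3% of all genes. The pyruvate kinase Pkm, listed under its older symbol Pkm2, was at 1205, 1513 and 1538 FPKM with IL-2 and 573, 616 and 530 FPKM without. It fell with no overlap, at -1.30 (SE 0.12, adjusted p = 8.1e-06). The largest falls were in Gpt2 (-3.11) and the pyruvate carboxylase Pcx (-2.70), and Pdp1 (-1.65), Me1 (-1.54, below 0.5 FPKM), Got1 (-1.51), Gls2 (-1.49), Tigar (-1.29), Pgm2 (-1.20) and Adpgk (-1.13) fell as well. Pdk2 rose from 1.15, 0.86 and 0.62 FPKM to 5.66, 6.49 and 7.75 FPKM and Pdk1 from 21.4, 21.6 and 21.7 FPKM to 47.5, 46.1 and 54.9 FPKM. These 2 kinases were higher in every library without IL-2, at 2.81 (adjusted p = 3.3e-06) and 1.19 (adjusted p = 2.4e-06), while Pdk3 was lower in every one, at 30.8, 27.1 and 32.8 FPKM with IL-2 and 17.9, 15.4 and 15.8 FPKM without, -0.88 (adjusted p = 4.2e-05), under the fold limit. Galm (1.87), Bpgm (1.55), Shpk (1.36) and Gpt (1.19) also rose, and Tktl1 was listed at 0 in all libraries with IL-2 and at 1.59, 1.19 and 1.2 FPKM without.

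Promoters of the members were read from the RefSeq table of GRCm38.p6, from 250 bases before to 50 after each start. They were searched on both strands for CACGTG, the core of the E-box bound by MYC and related factors. The search also covered ACGTG and GCGTG, cores of hypoxia response and related elements. ACGTG lies within CACGTG on both strands. Promoters were found for 42 of the 43 members, all but Idh3a. CACGTG was in a promoter of 4 of the 42 (9.52%, beside 8.09% of 27025 genes of the RefSeq table). ACGTG was in 16 (38.1%, beside 21.8%) and GCGTG in 27 (64.3%, beside 35.2%). These 27025 genes were not limited to those whose mRNA was measured here. ACGTG was in 11 of 19 glycolytic members, 1 of 7 pentose phosphate members and 4 of 16 TCA members, and GCGTG in 12, 6 and 9 of them. A gene with several promoters has more chances of a match, and the members had 60 promoters for 42 genes, beside 32851 for 27025 genes. Counted per promoter, the shares were 10% for CACGTG (all promoters 7.15%), 40% for ACGTG (19.6%) and 60% for GCGTG (32.4%). A match describes these letters only and is not evidence of binding.

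The 250 bases before the start are shown for 3 glycolytic members that rose upon activation and fell without IL-2, because these promoters differ in which of the 3 motifs they hold. They run 5′ to 3′ on the strand of the gene, with motif letters on either strand in capitals. Hk2 (chr6:82774455-82774704, minus strand) has 2 matches of ACGTG and none of the other motifs. Pgam1 (chr19:41911621-41911870, plus strand) has 1 match of ACGTG and 2 of GCGTG, and a promoter of Ldha (chr7:46845554-46845803, plus strand) has 2 of CACGTG and 5 of ACGTG, of which 4 lie in the 2 CACGTG. The Ldha stretch shown lies within the annotated gene, in an intron of a longer transcript. Another promoter of Ldha (chr7:46846832-46847081, plus strand), not shown, has 1 match of GCGTG and none of the other motifs.
Hk2: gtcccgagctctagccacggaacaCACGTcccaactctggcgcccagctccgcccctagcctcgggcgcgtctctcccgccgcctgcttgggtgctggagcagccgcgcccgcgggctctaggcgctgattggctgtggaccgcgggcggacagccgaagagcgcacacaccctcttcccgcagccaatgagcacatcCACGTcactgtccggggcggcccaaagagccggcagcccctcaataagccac
Pgam1: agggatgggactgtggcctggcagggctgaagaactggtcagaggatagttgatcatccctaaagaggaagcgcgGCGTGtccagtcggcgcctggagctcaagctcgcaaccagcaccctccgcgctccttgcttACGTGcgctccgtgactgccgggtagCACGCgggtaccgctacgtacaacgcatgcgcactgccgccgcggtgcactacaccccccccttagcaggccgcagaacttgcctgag
Ldha: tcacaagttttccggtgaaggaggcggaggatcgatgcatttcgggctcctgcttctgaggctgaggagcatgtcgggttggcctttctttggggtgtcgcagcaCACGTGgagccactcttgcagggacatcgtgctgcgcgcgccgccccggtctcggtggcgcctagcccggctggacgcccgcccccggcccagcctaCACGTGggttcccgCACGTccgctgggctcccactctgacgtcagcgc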

How the data were processed

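The authors deposited FPKM of 9 libraries of naïve and activated cells and of 6 CTL libraries, rounded to 2 decimals. Per the submitters' processing notes, reads were aligned to mm10 with STAR 2.5.2b, counted with Subread 1.5.1, filtered on low counts, normalized by TMM in edgeR and divided by exon length; the same steps were assumed for CTL. The 1039 blank cells of the first table were read as 0. Groups were taken from the titles.

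All genes of each table were fitted as log2(FPKM + 0.1) with limma 3.58.1 (R 4.3.3), using 1 fit per table, a variance prior that follows intensity, and Benjamini-Hochberg adjustment across the whole table. The fits were tested on simulated data. Python 3.11.15, pandas 2.3.3, numpy 2.4.6 and matplotlib 3.10.9 were used for the rest. Read totals were not available, so no counting limits are given.

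The members and the lists of other genes were chosen with earlier results of these data known. Values per library are given for the most abundant member of each isoform family and members that differ from it in a call or direction, for members called with PI3Kdi or without IL-2, and for the 3 largest changes per comparison; other members with values per library were named after their values were seen. Other pathway genes are named where called with PI3Kdi or without IL-2, with the 3 largest changes upon activation; 2 called without IL-2, and the change of 1 cell type marker, are counted but not reported here. Pdhx, Dld and Pdk3 were named after their values were seen.

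Replicate numbers were taken to pair naïve and activated libraries because pools were divided between conditions. For CTL no division of pools is given in the sources used here, so pairing them by number is an assumption. Deviations from group means of same-numbered libraries had Pearson r of 0.27, 0.2 and 0.51 between TCR activated and PI3Kdi libraries and 0.12, 0.17 and 0.26 between CTL groups, but -0.14, 0.23 and -0.18 between naïve and TCR activated and -0.01, -0.02 and 0.03 between naïve and PI3Kdi libraries, across 10072 and 10263 genes, which are not independent. Alternatives were pseudocounts of 1 and 0.01, median scaling, a filter at a mean of 1 FPKM, a replicate block, no intensity trend, only the groups compared, a fold limit of 1.5 or none, and leaving out each replicate.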

Additional observations from a re-analysis of the deposited data

How the results depend on the processing

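The direction of every member that passed both limits held under every alternative run. Of all log2 fold changes of single members under the alternatives, 1576 kept their direction and their side of the adjusted p limit, 60 lost that limit, 14 gained it and 20 changed sign. At the 2-fold limit alone, 14 of the 1576 lost the call and 9 gained it. The numbers of members called depended on the fold limit. Without one, 32 were higher and 4 lower for TCR activated against naïve cells, 6 lower for PI3Kdi against TCR activated cells, 30 higher and 4 lower for PI3Kdi against naïve cells, and 3 higher and 29 lower without IL-2. Beside these, the shares of all genes were 40.9% and 39.8%, 9.35% and 8.19%, 40.1% and 39.0%, and 35.2% and 36.6%. At 1.5-fold, 26 were higher and 2 lower upon activation (all genes 33.8% and 33.0%), 0 and 2 with PI3Kdi against TCR activated cells (6.10% and 3.84%), 24 and 2 for PI3Kdi against naïve cells (32.4% and 31.0%), and 2 and 20 without IL-2 (25.2% and 25.3%). The number lower than in naïve cells was 0 after activation and 0 with PI3Kdi at a pseudocount of 1, and 0 and 1 with genes under a mean of 1 FPKM left out, since these settings act on members of low level (Hk3 and Idh1). Median scaling gave ratios of the TCA sums of 1.75 for TCR activated and 1.58 for PI3Kdi against naïve cells, since the naïve libraries have the higher median FPKM (12.1 to 12.3, beside 11.2 to 11.5).

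With the replicate number as a block, members higher and lower were 20 and 1, 0 and 0, 17 and 2, and 0 and 16 in the 4 comparisons. Beside the values given for Gapdh, Mdh2 and Idh1, the block moved Idh3g without IL-2 from an adjusted p of 0.053 to 0.05, just under the limit, and it changed no other call.

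Leaving out each replicate gave 19 to 20 members higher and 1 lower upon activation, 0 and 0 with PI3Kdi against TCR activated cells, 16 to 17 and 2 for PI3Kdi against naïve cells, and 0 higher and 13 to 16 lower without IL-2. Shares of all genes are given only for the main fit and the fold limits, so counts under other settings cannot be set against them. The ratio of glycolytic sums ranged from 4.56 to 5.46 upon activation, 0.759 to 0.815 with PI3Kdi and 0.47 to 0.52 without IL-2.

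All sign changes were in members that had passed neither limit in the comparison, and they are given with the range over leaving out each replicate. Upon activation, they came without replicate 1 in Hk1 (-0.09 to 0.58), Pgls (-0.01 to 0.38) and Idh3b (-0.02 to 0.05). For PI3Kdi against TCR activated cells, they came without replicate 1 in Aldoc (-0.41 to 0.24), Eno2 (-0.52 to 0.26), Pdha1 (-0.00 to 0.11), Suclg1 (-0.06 to 0.13) and Fh1 (-0.04 to 0.13), without replicate 2 in Pgk1 (-0.36 to 0.00) and Pgls (-0.03 to 0.23), and without replicate 2 (-0.03), without replicate 3 and with median scaling (-0.02) in Idh3g (-0.04 to 0.12). For PI3Kdi against naïve cells, they came without replicate 1 in Ldhb (-0.06 to 0.39) and without replicate 3 in Hk1 (-0.29 to 0.10), Rpe (-0.01 to 0.01) and Mdh1 (-0.01 to 0.20). Without IL-2, they came without replicate 1 in Gpi1 (-0.06 to 0.08) and without replicate 3 in Aldoc (-0.07 to 0.02) and Ldhb (-0.02 to 0.20). The cause was not tested. The depth is unknown, which limits what can be said of members below 1 FPKM.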
